A study of Mus musculus with 25 samples.

Results

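Chromatin contacts of mouse embryonic stem (ES) cells were listed by H3K27ac HiChIP and by Hi-C, and the 2 lists were compared contact by contact. A contact is a pair of 10 kb bins of the same chromosome. The comparison rests on 4 of the 25 libraries of the series, 2 per assay, and on 355455 contacts in either list. Each contact was placed by its bin pair in both lists (38633), in the HiChIP list alone (36833) or in the Hi-C list alone (279989). All 4 libraries came from untreated V6.5 ES cells grown in KO-DMEM under 2i conditions, a medium with inhibitors that hold ES cells in the naive pluripotent state, and fixed with 1% formaldehyde. The HiChIP libraries were made with an antibody to H3K27ac. The Hi-C libraries had no antibody and were made with an Arima kit and KAPA reagents. Assay and library preparation therefore cannot be told apart. The labels do not say whether the 2 libraries of an assay came from separate cultures.

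Hi-C joins DNA fragments that are neighbours in the folded genome and so records contacts of all chromatin. HiChIP adds a precipitation step after ligation, so a pair is recovered when at least 1 of its ends carries the antibody's target. H3K27ac is a histone acetylation found at active promoters and enhancers. In ES cells such elements include the enhancers of the pluripotency genes, while many promoters of developmental regulators are held silent by Polycomb complexes and lack this acetylation.

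The HiChIP list held 75466 contacts with medians of 45 and 47 raw counts in replicates 1 and 2, and summed to 4097574 and 4242037 counts. The Hi-C list held 318622 contacts with medians of 23 and 27, and summed to 8525641 and 10015967 counts. The total depth was 166 and 168 M contacts for HiChIP and is unknown for Hi-C. Among listed contacts, replicates of an assay differed by no more than sampling noise. The chi-square per degree of freedom was 0.895 for HiChIP and 0.978 for Hi-C (p = 1 in both chi-square tests). Every listed contact had passed the authors' filter in both replicates. Contacts low in 1 replicate were thus left out beforehand, so the test cannot show that the libraries differ by sampling noise alone. With 1 pair per assay there was also no other pair to set the difference between replicates against. The libraries were therefore kept as 2 replicates, and p-values measure only the spread between them.

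Promoters with HiChIP contacts and few or no Hi-C contacts (Nanog, Zfp42, Tdgf1), with similar numbers of both (Fgf4) and with Hi-C contacts alone (Pax7, Snai1) are shown first, because they span the contrast at genes. Each run holds the 250 bases before the start, 5′ to 3′ on the gene's strand, from RefSeq (GRCm38.p6), with every CpG (the letters CG) in capitals. Nanog and Zfp42 encode pluripotency transcription factors, Tdgf1 encodes a NODAL co-receptor, and Fgf4 encodes a growth factor made by ES cells. Their windows lie at chr6:122707239-122707488 (plus strand), chr8:43307010-43307259 (minus), chr9:110946159-110946408 (minus) and chr7:144861136-144861385 (plus). The start bins had 23 HiChIP and 3 Hi-C contacts for Nanog, 11 and 0 for Zfp42, 14 and 0 for Tdgf1, and 12 and 10 for Fgf4.
Nanog: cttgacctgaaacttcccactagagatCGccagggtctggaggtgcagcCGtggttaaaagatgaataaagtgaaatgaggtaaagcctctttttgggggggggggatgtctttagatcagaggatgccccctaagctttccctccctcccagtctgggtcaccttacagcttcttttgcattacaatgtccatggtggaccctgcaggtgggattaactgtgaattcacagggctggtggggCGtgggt
Zfp42: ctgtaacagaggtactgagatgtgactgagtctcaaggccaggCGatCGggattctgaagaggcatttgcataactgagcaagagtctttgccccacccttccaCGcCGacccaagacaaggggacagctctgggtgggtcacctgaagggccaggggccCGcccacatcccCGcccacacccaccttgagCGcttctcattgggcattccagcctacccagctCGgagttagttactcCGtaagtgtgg
Tdgf1: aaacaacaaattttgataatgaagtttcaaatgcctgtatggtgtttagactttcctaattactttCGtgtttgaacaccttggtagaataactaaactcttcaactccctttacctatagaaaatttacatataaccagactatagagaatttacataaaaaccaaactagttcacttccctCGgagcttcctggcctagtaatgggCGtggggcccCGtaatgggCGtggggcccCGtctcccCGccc
Fgf4: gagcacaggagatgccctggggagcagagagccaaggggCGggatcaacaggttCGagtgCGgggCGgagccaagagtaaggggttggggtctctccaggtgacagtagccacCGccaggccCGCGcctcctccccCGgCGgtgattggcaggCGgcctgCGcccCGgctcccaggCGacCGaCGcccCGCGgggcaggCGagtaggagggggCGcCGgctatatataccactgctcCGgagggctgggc
Pax7 and Snai1, a myogenic and a mesenchymal transcription factor, had 17 and 12 Hi-C contacts and 0 HiChIP contacts. Their windows lie at chr4:139832969-139833218 (minus strand) and chr2:167537945-167538194 (plus). The Pax7 window lies inside the RefSeq gene body, which runs from 139737059 to 139833530, and so not before its outer end.
Pax7: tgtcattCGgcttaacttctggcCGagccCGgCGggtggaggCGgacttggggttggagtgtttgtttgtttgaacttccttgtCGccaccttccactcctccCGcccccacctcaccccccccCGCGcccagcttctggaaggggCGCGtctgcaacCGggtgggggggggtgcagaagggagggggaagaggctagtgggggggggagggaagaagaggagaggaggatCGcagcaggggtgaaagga
Snai1: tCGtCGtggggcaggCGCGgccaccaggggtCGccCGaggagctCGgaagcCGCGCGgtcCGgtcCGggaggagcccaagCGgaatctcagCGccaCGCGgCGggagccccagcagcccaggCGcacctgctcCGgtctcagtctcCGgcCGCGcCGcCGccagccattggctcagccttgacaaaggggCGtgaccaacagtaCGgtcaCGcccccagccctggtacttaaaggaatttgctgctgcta
The windows held 3 CpGs at Nanog, 7 at Tdgf1 and 9 at Zfp42, 21 at Fgf4, and 13 at Pax7 and 27 at Snai1. These 6 were picked with their contacts known and describe themselves only. Over all 21263 protein-coding promoters of the table the median was 10 CpGs per window. It was 15 at the 8866 promoters whose bin had contacts in both assays, 15 at the 863 with HiChIP contacts alone, 8 at the 5705 with Hi-C contacts alone and 3 at the 5829 with neither. The letters CACCC, a core of sites bound by Krüppel-like factors, were searched on both strands. They occurred in 54.2% of all windows and in 59.1% of those with contacts in both assays. The share was 52.8% with HiChIP contacts alone, 58.3% with Hi-C contacts alone and 42.9% with neither.

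Of the HiChIP contacts, 51.2% were also in the Hi-C list (95% Wilson interval 50.8 to 51.5), and of the Hi-C contacts 12.1% were also in the HiChIP list (12.0 to 12.2). These intervals, like all below, cover counting error only, since ligation products amplified by PCR are not independent molecules. Presence in a list has no replicate check, and a contact missing from a list may have any value below the authors' filters. Those filters were unlike: the authors' p-values reached 0.0978 in the HiChIP list and 0.00998 in the Hi-C list. The part of this in the shares was not tested. An FDR under 0.1 was given for 5.90% of HiChIP and 8.80% of Hi-C contacts. Of the 36833 contacts in HiChIP alone, 68.9% lay within 1 bin of a Hi-C contact at each anchor and 11450 lay farther away. Of the contacts in Hi-C alone, 18.0% had such a HiChIP neighbour.

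Sharing depended on distance. At 20 kb, 57.0% of HiChIP contacts were in the Hi-C list (56.2 to 57.7). At 50 to 90 kb the share was 49.9% (49.1 to 50.8), at 100 to 190 kb it was 30.6% (29.4 to 31.9), and at 200 to 490 kb it was 12.1% (10.3 to 14.2). Beyond that only 39 HiChIP contacts remained, 3 of them shared. In the other direction the share fell from 21.2% of Hi-C contacts at 10 kb to 6.51% at 50 to 90 kb and 1.76% at 200 to 490 kb. Shared contacts were accordingly short, with a median of 20 kb and 4.48% at 100 kb or more. Contacts in HiChIP alone had a median of 30 kb and 12.5% at 100 kb or more, and contacts in Hi-C alone had 50 kb and 16.9%.

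**Figure D1:**
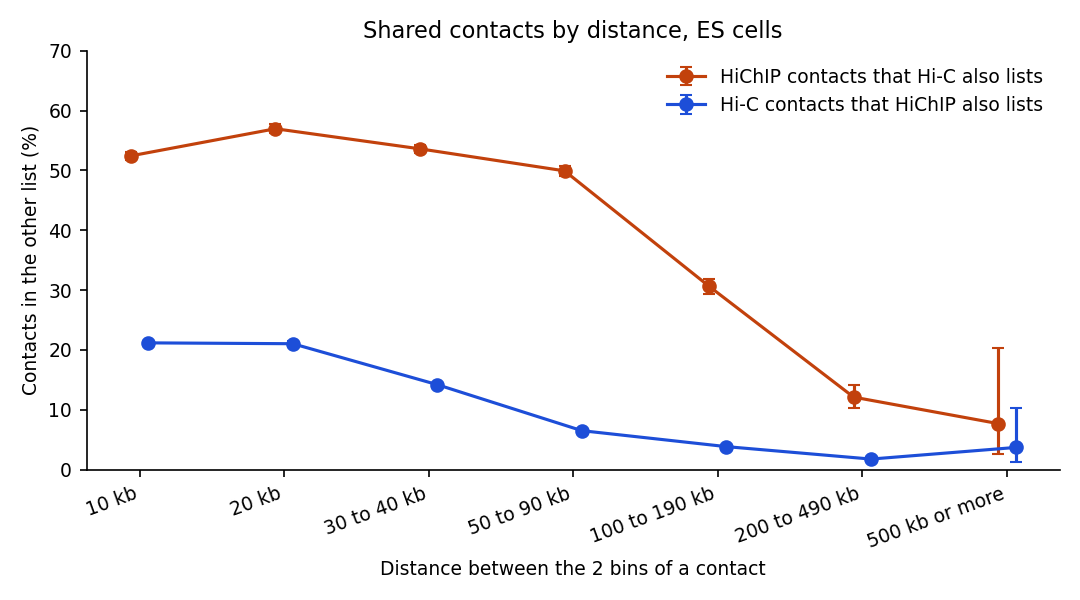
Share of each list found in the other (y axis, percent) by distance between the bins (x axis), with 95% Wilson intervals. Orange points, the HiChIP contacts also in Hi-C, stay between 49.9% and 57.0% up to 90 kb and drop to 12.1% at 200 to 490 kb, and blue points, the Hi-C contacts also in HiChIP, start at 21.2%.

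Strength within an assay separated shared from unshared contacts in Hi-C more than in HiChIP. Contacts were divided into 5 equal bands by raw count within each distance. The bands pool chromosomes, whose lowest listed counts and shares differ, and the part of this in the bands was not tested. In Hi-C the shared percentage was 7.61% in the weakest band and 18.5% in the strongest, and from weakest to strongest in HiChIP it was 48.9%, 49.9%, 51.4%, 53.5% and 52.2%. At 20 kb, for example, HiChIP contacts had median summed counts of 101 when shared and 99 when alone, and Hi-C contacts had 86 and 82. Chromosomes differed too: 75.4% of the HiChIP contacts of chromosome X were in the Hi-C list, against 33.6% on chromosome 11 and 34.8% on chromosome 19. The authors' HiChIP cutoff was a CPM taken relative to the contacts of each chromosome, so its lowest summed count was 25 on chromosome X, 26 on chromosome 19, 60 on chromosome 11 and 77 on chromosome 1. The lowest listed summed Hi-C count was 11 on chromosome X, 29 on chromosome 19, 40 on chromosome 11 and 28 on chromosome 1. The part of either assay's cutoff in the differences between chromosomes was not tested. With 1 cutoff of 77 summed HiChIP counts for all chromosomes and the Hi-C list left whole, 53.7% of HiChIP contacts were shared.

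The 5 longest shared contacts spanned 410 to 620 kb. The longest, on chromosome 4, joined the bins starting at 145430001 and 146050001, and had 51 and 43 HiChIP counts and 24 and 47 Hi-C counts. On chromosome 14, the start of Tsc22d1, a leucine zipper regulator that responds to TGF-beta, contacted a bin 500 kb away with 27 and 24 HiChIP and 12 and 15 Hi-C counts. Topologically associating domains, the authors' domains called from the same Hi-C, contained nearly all contacts of every class. Domain borders were crossed by 0.983% of shared contacts, 3.20% of those in HiChIP alone and 1.95% of those in Hi-C alone.

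Anchors, the bins that hold at least 1 contact, overlapped far more than contacts. HiChIP had 40136 anchors and Hi-C 111213, with 35923 in common, which is 89.5% of the first and 32.3% of the second. Of the contacts in HiChIP alone, 75.7% had both bins among the Hi-C anchors and 6.45% had neither. The number of contacts per bin was only loosely related between the assays (Spearman's rho 0.21 over the 115426 bins in either list, a description across bins that share libraries and neighbours). An anchor had a median of 2 HiChIP contacts or 5 Hi-C contacts.

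The busiest anchors were different ones. A hub is taken here as a bin with 20 or more contacts. Hi-C had 827 hubs and HiChIP 250, and 8 bins were hubs in both. HiChIP hubs had a median of 8 Hi-C contacts, and 23 of the 250 had none. Hi-C hubs had a median of 1 HiChIP contact, and 45.1% had none. A protein-coding start lay in 34.0% of HiChIP hubs, against 18.2% of all HiChIP anchors, and in 14.6% of Hi-C hubs, against 10.3% of all Hi-C anchors. Contacts with a hub on the HiChIP side were shared least: 30.2% of those whose busier anchor had 20 or more contacts were in the Hi-C list, against 56.4% at 5 to 9 contacts. Their median distance was 70 kb against 20 kb. Of the HiChIP hubs 84 lay on chromosome 19, where the count cutoff was among the lowest, and with 1 cutoff for all chromosomes 30 hubs remained in HiChIP. Of the Hi-C hubs, 214 lay on chromosome X, where the lowest listed summed Hi-C count was 11, against 26 to 40 on the other chromosomes. The part of these cutoffs in the hubs was not tested for Hi-C.

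Among the 6 busiest HiChIP bins, the one at chr19:6670001-6680000 had 45 HiChIP and 4 Hi-C contacts, and all 4 were shared. The bin with the start of Rcor2, a subunit of a histone demethylase complex, had 40 and 12. A bin on chromosome 16 that overlaps Hes1, a Notch target, had 37 and 11. With the single cutoff these 3 bins kept 8, 18 and 14 HiChIP contacts. On the Hi-C side, 3 of the 6 busiest bins lay within 40 kb on chromosome 16. The bin at chr16:35530001-35540000 had 36 Hi-C and 2 HiChIP contacts, and its neighbour with the start of Sema5b, a guidance semaphorin, had 32 and 16. On chromosome X, a bin that overlaps Efnb1, an ephrin ligand, had 35 Hi-C and 0 HiChIP contacts under that chromosome's low Hi-C cutoff. Hes1 and Efnb1 are named by the gene body that the bin overlaps and were added after their values were seen.

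Acetylation at the anchors was read from the authors' marks of H3K27ac ChIP peaks, which come with the H3K27ac HiChIP list of cells labelled TKO at 0 h. Per the labels those cells are also V6.5 in 2i medium, and TKO is not spelled out. A peak was annotated at 1 or both bins of 97.1% of contacts in HiChIP alone, 93.8% of shared contacts and 30.2% of contacts in Hi-C alone. Both bins were annotated in 61.2%, 50.3% and 6.21%. A bin outside the TKO list carries no mark, which lowers the Hi-C shares. Among contacts with both bins in that list, both carried a peak in 65.03% of those in HiChIP alone, 53.5% of shared contacts and 22.0% of those in Hi-C alone. A gene start lay at 1 or both bins of 40.7% of contacts in HiChIP alone, 41.7% of shared contacts and 19.4% of contacts in Hi-C alone.

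Lists from other libraries set the classes apart in a different order for each assay. The TKO H3K27ac list held 78.4% of shared contacts and 76.7% of those in HiChIP alone, but 5.10% of those in Hi-C alone. KLF4 HiChIP of ES cells, with an antibody to a pluripotency transcription factor, held 30.01% of shared contacts, 17.9% of those in HiChIP alone and 1.38% of those in Hi-C alone. Mouse embryonic fibroblasts (MEFs) with an inducible reprogramming cassette, uninduced and at passage 3, gave the reverse in Hi-C. MEF Hi-C held 55.8% of shared contacts and 37.8% of those in Hi-C alone, but 15.6% of those in HiChIP alone. MEF H3K27ac HiChIP held 30.7%, 16.4% and 6.33% of shared, HiChIP alone and Hi-C alone contacts. All 95% Wilson intervals were narrower than 1 percentage point to either side.

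**Figure D2:**
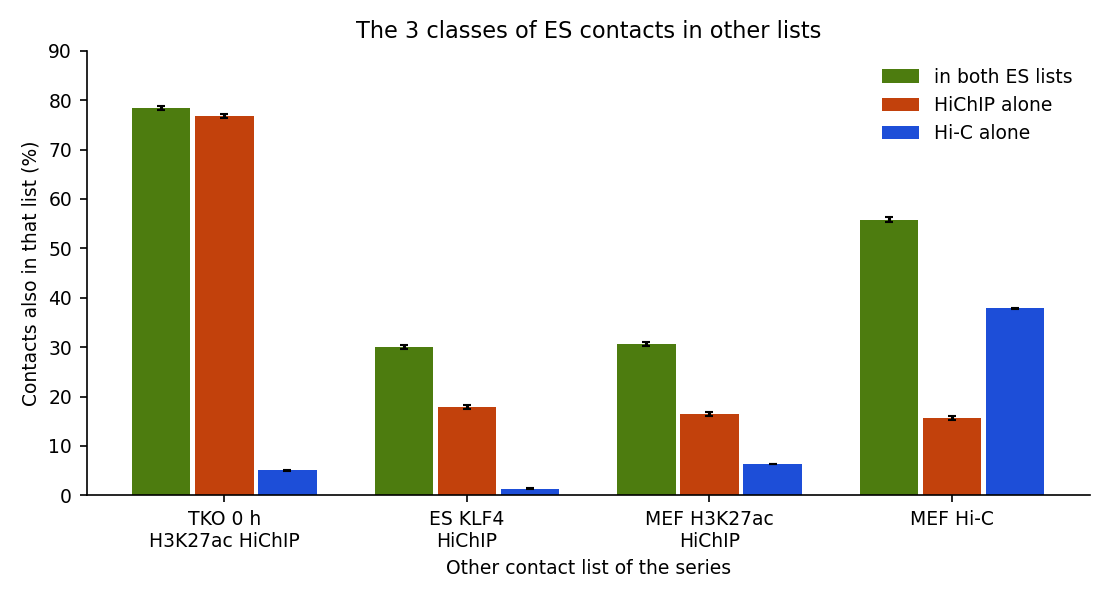
Percent of each class of ES contacts (y axis) that another contact list of the series also holds (x axis), with 95% Wilson intervals. Bars for contacts in HiChIP alone reach 76.7% in the TKO list and 15.6% in MEF Hi-C, and bars for contacts in Hi-C alone show the opposite order, with 5.10% and 37.8%.

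Up to 490 kb, contacts in Hi-C alone had the lowest share in the TKO list at each distance. Contacts in HiChIP alone had the lowest share in MEF Hi-C. Shared contacts and those in HiChIP alone changed order with distance in the TKO list. At 10 kb it held 83.7% of shared contacts and 88.0% of those in HiChIP alone, and at 20 kb 82.4% and 84.3%. At 50 to 90 kb the TKO list held 69.1% of shared contacts, 65.3% of those in HiChIP alone and 2.88% of those in Hi-C alone. At the same distance MEF Hi-C held 44.1% of shared contacts, 12.3% of those in HiChIP alone and 27.5% of those in Hi-C alone.

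Genes were placed by the bins that hold their RefSeq starts, 17492 protein-coding genes in all. A HiChIP contact touched 45.0% of them and a Hi-C contact 67.2%. Contacts in both assays touched 7188 genes, HiChIP contacts alone 680, Hi-C contacts alone 4558 and none 5066. A TKO H3K27ac peak was annotated in the start bins of 81.2% of genes with both, 87.1% with HiChIP alone, 13.98% with Hi-C alone and 4.60% with none. A start bin outside the TKO list carries no mark and counted as without a peak, which can lower these shares. That list touched 49.99% of all genes, and shares among genes with a known mark were not computed. The Hi-C list is 318622 contacts long and the HiChIP list 75466, and accordingly 52.1% of genes had more Hi-C than HiChIP contacts and 15.5% had more HiChIP contacts.

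Most pluripotency genes had the opposite balance. All 17 genes with a matched start, of 24 in the list, had HiChIP contacts, 12 had Hi-C contacts, and 12 of the 17 had more HiChIP than Hi-C contacts, 70.6% (46.9 to 86.7) against 15.5% of all genes. The list median was 7 HiChIP and 5 Hi-C contacts, against 0 and 3 over all genes. The transcription factor genes Nanog and Mycn had 23 HiChIP contacts each, with 3 and 7 in Hi-C. Pou5f1, which encodes OCT4, had 17 and 5. A further 5 had HiChIP contacts and 0 Hi-C contacts: Tdgf1 with 14, Zfp42 with 11, the DNA demethylases Tet1 and Tet2 with 7 each, and Klf4 with 4.

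Other members of the list differed less or the other way. Fgf4 had 12 and 10 contacts, Klf2 11 and 9, Sox2 6 and 3, and Tfcp2l1 7 and 6. Lin28a, an RNA-binding protein gene, had 5 in each list and the nuclear receptor gene Nr0b1 had 1 in each. More Hi-C than HiChIP contacts touched the nuclear receptor gene Esrrb (6 and 18), Nr5a2 (9 and 13) and the chromatin factor gene Utf1 (7 and 9). Under 3 other ways of counting, 9 of the 12 genes with more HiChIP contacts kept that direction each time, and at 50 kb or more Tfcp2l1 turned to 3 more Hi-C contacts. The 3 ways were 1 bin added on each side, the single cutoff, and 50 kb or more. The single cutoff removes HiChIP contacts only, so it can move a gene only towards Hi-C. The TKO list touched all 17 genes, MEF H3K27ac HiChIP touched 3 of them (17.6%) and MEF Hi-C 11 (64.7%). Over all genes these shares were 49.99%, 36.8% and 60.1%.

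LIF signalling sustains mouse ES cells through the receptor pair LIFR and gp130, the kinase JAK1 and the factor STAT3. Il6st, which encodes gp130, had 15 HiChIP and 10 Hi-C contacts, Lifr 12 and 10, Stat3 3 and 2, and the feedback inhibitor gene Socs3 14 and 6. Jak1 had 0 HiChIP and 8 Hi-C contacts, and its start bin was outside the TKO list, so its peak state is unknown. Of the 4 genes with more HiChIP contacts only Socs3 kept that direction under every way of counting. Adding 1 bin on each side gave Il6st 5 and Stat3 8 more Hi-C contacts, and at 50 kb or more Lifr had 4 more.

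Genes of other lineages were read against the 15.5% of all genes with more HiChIP and the 52.1% with more Hi-C contacts. None of the 14 matched fibroblast genes had more HiChIP contacts, 9 (64.3%) had more Hi-C contacts, a share near that of all genes, and 5 had equal numbers. S100a4, a calcium-binding protein gene of mesenchymal cells, had 2 HiChIP and 17 Hi-C contacts, and Snai1 had 0 and 12. In MEF, H3K27ac HiChIP contacts touched 10 of these 14 genes, against 36.8% of all genes, with 24 contacts at Runx1 and 15 at Acta2. Of the developmental regulators that Polycomb typically silences in ES cells, 12 of 14 (85.7%) had more Hi-C contacts, 0 had more HiChIP contacts, and 13 had a Hi-C contact. Pax7 had 0 and 17, Hoxa9 0 and 5, Hoxb1 0 and 4, and Neurog1 7 and 9. The upper limit of the Wilson interval for a share of 0 among 14 genes was 21.5%, so the background of 15.5% lies within it.

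**Figure D3:**
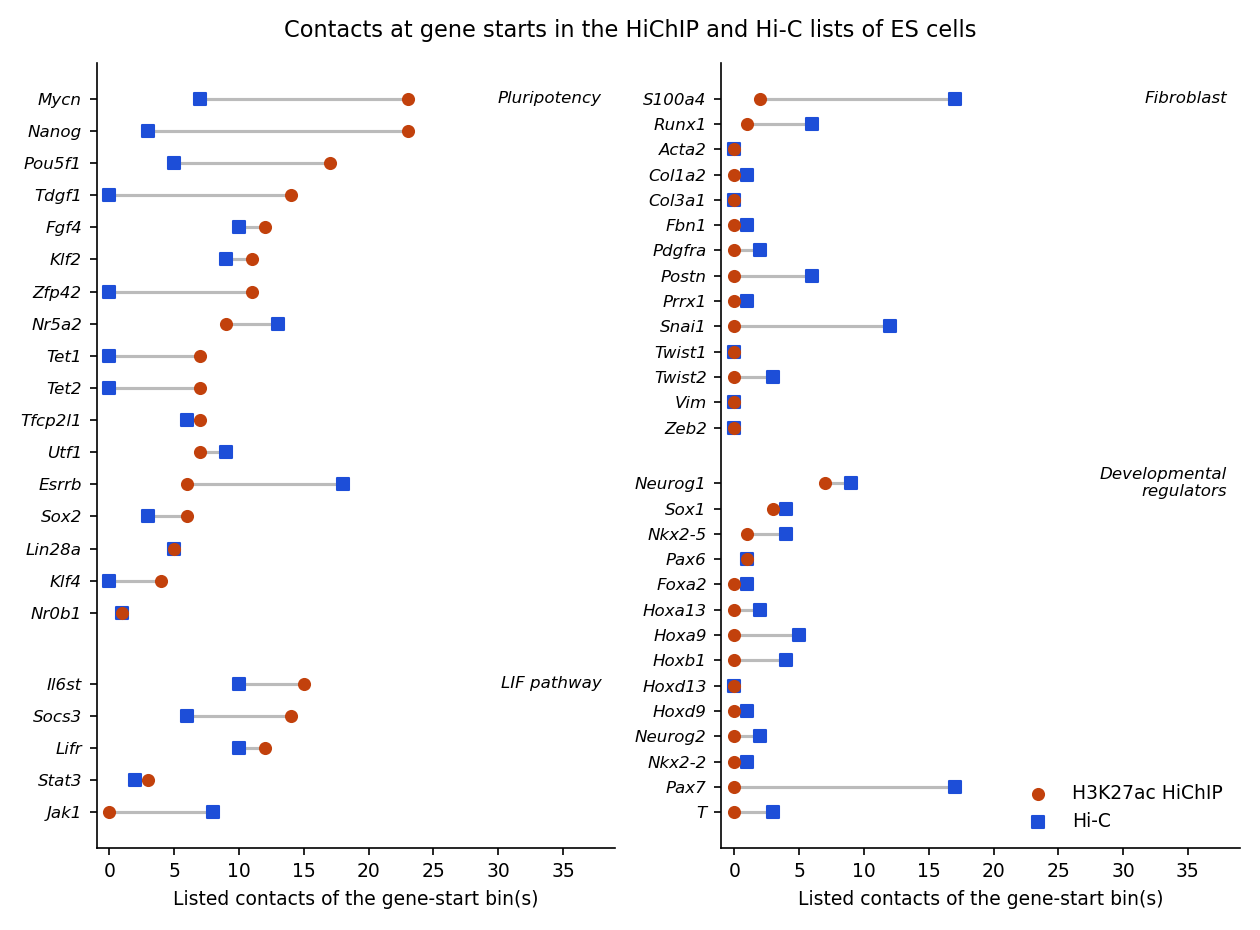
Listed contacts of the start bins of each gene (x axis) in H3K27ac HiChIP (orange circles) and Hi-C (blue squares), joined by a grey line, for 4 gene lists. Circles lie to the right at most pluripotency genes (Nanog 23 against 3) and squares at fibroblast genes and developmental regulators (Pax7 17 against 0).

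Other groups were read against the same background, 15.5% of all genes with more HiChIP and 52.1% with more Hi-C contacts. Of 75 ribosomal protein genes, 38 (50.7%) had more HiChIP and 28 (37.3%) more Hi-C contacts, with medians of 4 and 5. Of 11 genes for loop and cohesin factors 6 (54.5%) had more HiChIP contacts, among them the cohesin subunit gene Smc3 (20 and 5) and the insulator factor gene Ctcf (11 and 5). The cohesin loader gene Mau2 had 6 and 25. Only 2 of these 6 genes, Smc3 and Ldb1, kept that direction under every way of counting, and with the single cutoff the difference at Smc3, on chromosome 19, shrank from 15 contacts to 1. Of 8 coactivator genes 5 (62.5%) had more HiChIP contacts, including Med1, a Mediator subunit gene, with 10 and 1. The histone acetyltransferase gene Ep300 had 18 and 13, but 3 more Hi-C contacts with the single cutoff. That cutoff trims HiChIP alone and left Ep300 with 10 HiChIP and 13 Hi-C contacts. Olfactory receptor genes were mostly empty, with HiChIP contacts at 28 (2.97%) and Hi-C contacts at 122 (12.9%) of 944, against 45.0% and 67.2% of all genes. Zinc finger protein genes had HiChIP contacts at 182 (55.0%) and Hi-C contacts at 199 (60.1%) of 331.

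Single genes show what the counts of contacts are made of. The Nanog start bin had HiChIP contacts with 23 bins from 10 to 360 kb away. The strongest, 60 kb downstream in the body of the glucose transporter gene Slc2a3, had 358 and 307 counts and was not in the Hi-C list. The 3 Hi-C contacts of Nanog, at 30, 40 and 80 kb, all belonged to the HiChIP list. The farthest, with 63 and 73 HiChIP counts, ended in Phc1, a Polycomb subunit gene 360 kb upstream. Tdgf1 had its strongest contact with the next bin (681 and 682 counts), and Tet1 and Zfp42 had theirs at 10 and 20 kb (517 and 469, 321 and 323). Replicates were close at each of these contacts.

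Mycn, which encodes N-MYC, reached far bins in both assays. Its strongest HiChIP contact lay 160 kb away with 234 and 208 counts and was absent from the Hi-C list, while the Hi-C contact next to it, 170 kb away, had 17 and 24 counts. Sox2 had 3 HiChIP contacts at 100, 110 and 120 kb downstream, where its ES cell enhancer cluster is known to lie. They had 41 and 51, 111 and 102, and 102 and 97 counts, and those at 100 and 120 kb were also in Hi-C. Pax7 had Hi-C contacts from its start through its own gene body to a bin 170 kb away, with 13 to 61 counts in replicate 1 and 16 to 47 in replicate 2. Snai1 had Hi-C contacts from 20 to 130 kb, the strongest 70 kb away in Ube2v1 with 51 and 51 counts.

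**Figure D4:**
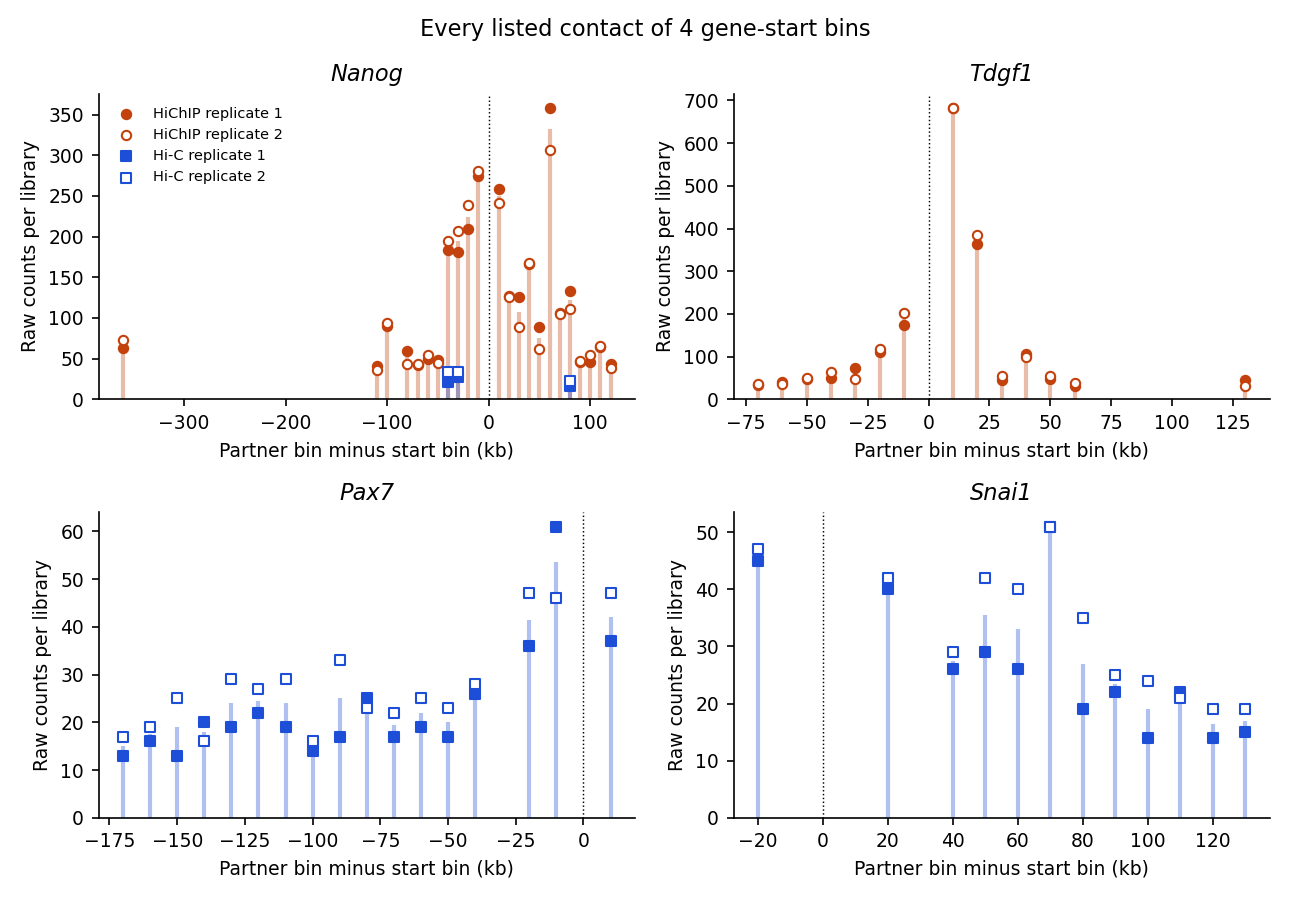
Raw counts per library (y axis) of every listed contact of 4 gene-start bins against the position of the partner bin along the chromosome (x axis, kb from the start bin at 0). Filled and open symbols are replicates 1 and 2 and bars their mean: Nanog and Tdgf1 show HiChIP contacts (orange) up to 358 and 682 counts, and Pax7 and Snai1 show only Hi-C contacts (blue), up to 61 and 51.

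The strongest contacts in HiChIP alone, at 20 kb or more, again included a pluripotency gene. The first joined the bins starting at 86470001 and 86500001 on chromosome 12, both inside the body of Esrrb, with 680 and 754 counts and an authors' CPM of 99.1 ± 6.60 (SD, n = 2). A bin 60 kb upstream contacted the start of Klf9, a Krüppel-like factor gene, on chromosome 19 with 268 and 248 counts. The 5 strongest in Hi-C alone all lay between 3130001 and 3190000 on chromosome 11, in bins that overlap Sfi1, which encodes a centrosome protein. The first had 1488 and 1487 counts.

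Contacts in both lists allow a test of strength. Counts of the 38633 shared contacts were compared with edgeR's quasi-likelihood test, 2 libraries against 2, after scaling by TMM factors, which assume that most contacts keep 1 ratio between the assays. The test speaks of relative strength within the shared contacts and not of contacts in 1 list. It called 11762 of them (30.4%) at an adjusted p under the threshold of 0.05: 7135 (18.5%) higher in HiChIP, with a median log2 change of 0.92, and 4627 (12.0%) lower, with a median of -0.73. Scaling moved this split. Without TMM 5502 were higher and 8651 lower, and the median log2 change of all shared contacts moved from -0.03 to -0.18. Called changes were larger upwards: 360 exceeded a log2 change of 2, while the largest decrease was -1.80. Every tested contact had passed both lists' filters. The lowest listed summed count per chromosome was 25 to 77 in HiChIP and 11 to 40 in Hi-C. This bounds the size of changes, and its part in the difference between directions was not tested.

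Peaks at the anchors went with the direction. Of 19430 shared contacts with a TKO H3K27ac peak at both bins, 31.0% were higher in HiChIP and 5.15% lower, with a median log2 change of 0.24. With a peak at 1 bin, 6.97% of 15564 were higher and 15.3% lower (median -0.19). With no peak, 0.677% of 1330 were higher and 35.8% lower (median -0.47). Without TMM the 3 medians were 0.09, -0.34 and -0.63. Their order was also the same with offsets per distance and per chromosome, both fitted in place of TMM. Shared contacts that the ES KLF4 list also held were higher in 30.9% of cases, against 13.1% of the others. By distance the median log2 change differed less, with -0.20 at 20 kb and 0.20 at 50 to 90 kb. The calls differed too: at 20 kb 13.8% were higher and 20.5% lower, and at 50 to 90 kb 23.2% and 4.24%. A distance offset, which centres each distance class, gave 6117 higher and 5397 lower, against 5502 and 8651 without TMM.

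Contacts at pluripotency genes leaned strongly to HiChIP. Of 52 shared contacts at these starts 37 were higher and 1 lower, against 18.5% and 12.0% of all, and their median log2 change was 1.03 against -0.03. Across the other scalings and DESeq2, 28 to 35 were higher. The LIF pathway had 7 higher and 1 lower of 18 (median 0.40), and ribosomal protein genes 62 higher and 7 lower of 192 (median 0.30). Loop and cohesin genes had 9 higher and 2 lower of 36 and coactivator genes 6 higher and 0 lower of 32. Scaling changed these counts: without TMM the LIF pathway had 4 higher and 2 lower, ribosomal protein genes 51 and 18. Without TMM the loop and cohesin genes had 7 and 3 and the coactivator genes 6 and 6, and with an offset per chromosome they had 11 and 3, and 5 and 5. Few shared contacts touched genes of other lineages: 3 at fibroblast genes, 2 of them lower, and 5 at developmental regulators, 1 of them higher.

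**Figure D5:**
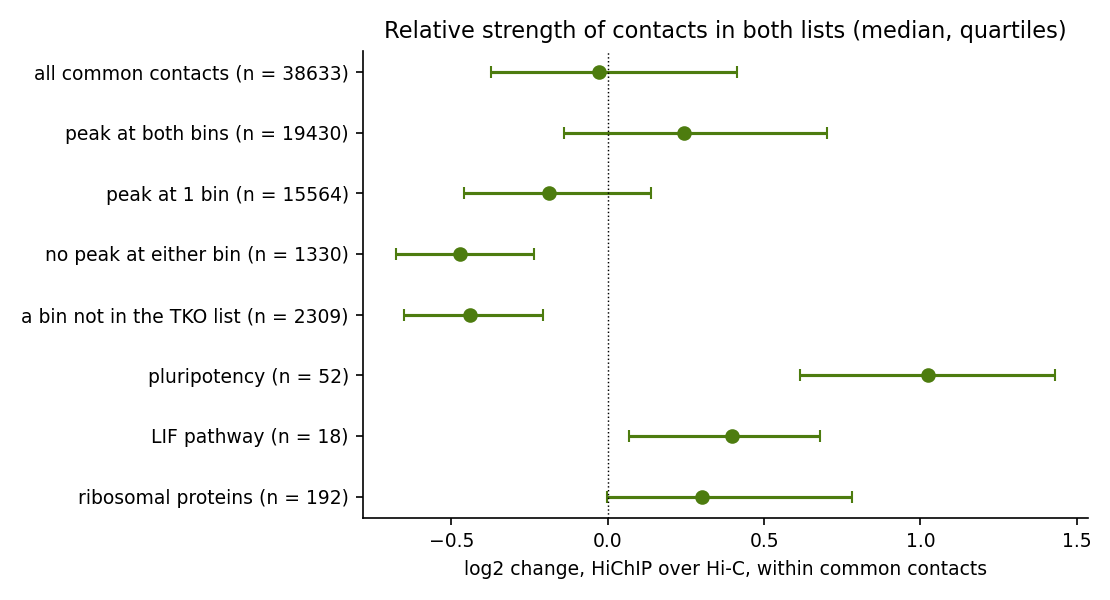
Median (points) and quartiles (bars) of the log2 change of HiChIP over Hi-C within shared contacts (x axis), by H3K27ac peaks at the bins and by gene list (y axis). The pluripotency median lies at 1.03 and contacts with no peak at -0.47, with all shared contacts at -0.03.

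Nanog had 183 and 195 HiChIP counts against 21 and 33 Hi-C counts at its 40 kb contact, a log2 change of 2.39 ± 0.19 (SE; edgeR adjusted p = 1.65e-14), and all 3 of its shared contacts were higher. The Sox2 contact at 120 kb had 102 and 97 against 16 and 24 (1.90 ± 0.23, edgeR adjusted p = 3.79e-09). For Fgf4 the adjacent upstream bin, at 10 kb, had 539 and 537 against 45 and 50 (3.09 ± 0.13, edgeR adjusted p = 2.19e-25), and 8 of 10 contacts were higher. In all 3 cases the HiChIP counts of both replicates lay above both Hi-C counts, also after scaling. Pou5f1 had 4 of 5 higher, Klf2 7 of 8, Nr5a2 8 of 9, Tfcp2l1 2 of 2 and Mycn 2 of 3. The rest leaned less: Utf1 had 1 of 6 higher, Lin28a 0 of 1, and Esrrb 0 of 3 with 1 lower at its starts.

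Within the Esrrb body lay the 2 shared contacts with the largest change among those of 20 kb or more. The bins starting at 86470001 and 86490001 on chromosome 12 had 718 and 755 HiChIP counts against 30 and 41 Hi-C counts (log2 change 3.96 ± 0.12, edgeR adjusted p = 1.21e-29). The bins starting at 86460001 and 86500001 had 397 and 375 against 26 and 19 (3.68 ± 0.17, edgeR adjusted p = 2.68e-23). They lie 40 to 80 kb downstream of the second Esrrb start bin, and that start bin itself had HiChIP contacts with 86460001, 86470001, 86490001 and 86500001 at 24 to 41 counts. The gene's starts and its interior thus gave opposite readings.

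The next largest changes joined bins with the non-coding RNA genes Malat1 and Neat1 (548 and 534 against 25 and 43 counts, log2 change 3.58), and a bin in Ift52 with the start of Mybl2, a cell cycle transcription factor gene (560 and 526 against 40 and 36, log2 change 3.42). Over longer distances, 140 kb separated the kinase gene Sgk1 from a bin with the non-coding RNA gene Platr6 (156 and 194 against 13 and 15, log2 change 3.22). At Mycn, the body of the gene contacted a bin 150 kb away with 252 and 269 against 15 and 27 counts (log2 change 3.22). The bin pair at Hs6st1, a heparan sulfate sulfotransferase gene, had 440 and 474 against 32 and 40 (log2 change 3.25). All 10 of the largest increases had a TKO peak at both bins. Gene bodies and non-coding genes in these pairs were looked up after the values were seen.

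The largest decreases, among contacts that had passed both lists' filters, were smaller than the largest increases and clustered in few places. Of the 10, 5 lay between 3120001 and 3200000 on chromosome 11, at Sfi1, and the strongest by counts had 572 and 540 HiChIP against 1150 and 1270 Hi-C counts (log2 change -1.54 ± 0.06, edgeR adjusted p = 6.14e-25). Another 3 lay on chromosome 16 between 35480001 and 35540000, partly inside Pdia5, a protein disulfide isomerase gene, and overlapped the Hi-C hubs next to Sema5b. One, inside Macrod1 on chromosome 19, had the largest fall, with 14 and 13 against 27 and 44 counts (log2 change -1.80 ± 0.27, edgeR adjusted p = 5.84e-07). The last joined the start of Tmem267 on chromosome 13 to a bin 130 kb away (log2 change -1.70). Of the 10 decreases, 7 had a TKO peak at 1 bin, and 3 had a bin outside the TKO list, whose peak state is unknown. All 20 contacts named by size kept their direction and their call in every setting that tested them.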

How the data were processed

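Each deposited list pairs 10 kb bins and gives, per the file headers, raw counts of contacts and a CPM value for each replicate, with 1 p-value and 1 FDR per contact. In HiChIP the deposited CPM is scaled within each chromosome: dividing counts by it returned whole contact totals on 20 of 20 chromosomes. In Hi-C this held for 0 of 20, so that column is treated as a signal scaled by the authors in an unstated way. Deposited p-values reached 0.0978 in HiChIP and 0.00998 in Hi-C. Deposited domain scores and the deposited ratio were not used as strengths. The submitters' processing notes name mm10 and Bowtie2 2.2.3. The contact caller and its test are not given in the sources used here.

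Contacts matched when both bins were equal. Gene starts came from the RefSeq GRCm38.p6 promoter table, which matched 17492 of 21900 protein-coding symbols and held none on chromosome 18. Shares carry 95% Wilson intervals. Shared contacts were fitted with edgeR 4.0.16 in R 4.3.3 (filterByExpr, TMM, quasi-likelihood test, Benjamini-Hochberg) on the deposited counts. DESeq2 1.42.0 was an alternative. On simulated data, 63.5% of 200 changes of 2-fold were recovered among 38596 contacts, with 3 false calls. Named genes were all list members, genes at the 6 busiest bins per assay, at the 5 strongest contacts of each list alone, at the 5 longest shared contacts and at the 10 largest called changes each way at 20 kb or more. Members and gene lists were chosen with earlier results of these data known. Tables were handled with Python 3.11.15, pandas 2.3.3, scipy 1.17.1 and matplotlib 3.10.9.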

Additional observations from a re-analysis of the deposited data

How the results depend on the processing

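Sharing of HiChIP and of Hi-C contacts was 84.8% and 27.9% with each anchor up to 1 bin away, 42.7% and 5.55% at 50 kb or more, 50.7% and 10.5% at 20 kb or more, and 9.14% and 1.45% when both lists were held to the authors' FDR under 0.1. It was 23.5% both ways with the Hi-C list reduced to the HiChIP length, 53.7% and 8.34% with 1 count cutoff, 52.5% and 11.8% without chromosome 19, and 54.7% and 4.68% with HiChIP at 2 times its lowest CPM. Holding only Hi-C to that FDR, an alternative chosen after seeing the data, gave 6.32% and 17.0%. That FDR was met by 5.90% of HiChIP and 8.80% of Hi-C contacts, so most contacts in either list passed only the unadjusted p-value. The cause of the other shifts was not tested.

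The percentage of genes with more HiChIP contacts, with 1 bin added on each side, was 10.2% for all genes, 27.3% for loop and cohesin genes, 25% for coactivators and 30.7% for ribosomal protein genes. With 1 count cutoff, which removes HiChIP contacts only, it was 10.6% for all genes and 12.5% for coactivators. At 50 kb or more it was 7.56% for all genes, 27.3% for loop and cohesin genes and 26.7% for ribosomal protein genes.

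Calls among shared contacts numbered 3458 with DESeq2 (3122 higher, 336 lower; 5992 had no adjusted p) and 1938 at 50 kb or more (1145 and 793), where 8493 contacts were tested. Without TMM 8651 were lower and 5502 higher, and with an offset per chromosome 8475 and 5436. The offsets per chromosome and per distance were fitted in place of TMM, so their reference is the fit without TMM. Leaving out 1 library gave 7515 to 9353 calls, 5339 to 6022 higher and 2176 to 3331 lower, with the lone sample assumed to vary like the other assay's. Without HiChIP replicate 1 there were 7515 calls and without replicate 2 there were 7596. Lower calls were 2176 and 2225 without HiChIP replicate 1 and 2 and 3059 without Hi-C replicate 2. Replicate numbers were no sign of pairing (correlation of deviations 0.00908 over 2 pairs), and a replicate block gave 12088 calls, 7230 higher and 4858 lower. No contact called in both the main fit and one of these fits had opposite directions in them. Contacts that lost their call were not checked for direction. Contacts had medians of 23 to 47 counts per library, which limits single changes.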
